A study of Mus musculus with 9 samples.

Results

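The genes described here are the dual-specificity phosphatases that act on MAP kinases, a family of 10 genes (Dusp1, Dusp2, Dusp4, Dusp5, Dusp6, Dusp7, Dusp8, Dusp10, Dusp14 and Dusp16) among the 57238 entries of the deposited gene table. The family was selected by gene name from a table whose group differences were already known, so its differences below are a description and not an independent test of the family. The gene lists set beside it were also chosen with earlier results of these data known, and their counts are a description too. Bone marrow cells of wild-type C57BL/6 mice were differentiated for 6 days with 20 ng/ml GM-CSF into bone marrow-derived dendritic cells (BMDCs), and RNA was sequenced from 3 groups of 3 libraries each. Control (CTR) BMDCs received no exosomes. NE BMDCs received exosomes of NIH-3T3 cells, a non-cancerous mouse fibroblast line, for 24 h, and TDE BMDCs received exosomes of tumor cells for 24 h. Whether CTR BMDCs were kept for the same further 24 h is not stated, so comparisons with CTR may include a difference in culture time. The sample labels do not name the tumor line. According to the methods of the study, exosomes with no stated source came from the mouse tumor lines TC-1 or MC38. All 9 libraries shared the strain, genotype and GM-CSF culture. Nothing in the labels states that the 3 libraries of a group came from separate cultures or mice, so the p-values measure only the spread between these libraries, which may be technical.

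MAP kinases (ERK, JNK and p38) are switched on by phosphorylation of a threonine and a tyrosine in their activation loop. The MAP kinase phosphatases remove both phosphates and so end the signal. Many of them are made in response to the pathway that they shut off, which makes their mRNA part of a negative feedback. Dusp1, Dusp2, Dusp4 and Dusp5 encode nuclear, inducible enzymes, Dusp6 and Dusp7 encode cytoplasmic enzymes that prefer ERK, Dusp8, Dusp10 and Dusp16 encode enzymes that prefer JNK and p38, and Dusp14 encodes a small enzyme that lacks the MAP kinase-binding domain of the others. In dendritic cells and macrophages, Dusp1 is known for limiting p38 activity and the production of inflammatory cytokines after microbial stimulation.

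All 10 members are protein-coding genes in the GENCODE vM21 annotation, which uses build GRCm38. The build used for the deposited counts is not given in the sources used here. The genes whose levels differed between groups lie apart from each other: Dusp16 at chr6:134715468-134792625 on the minus strand, Dusp14 at chr11:84048041-84069261 on the minus strand, Dusp4 at chr8:34807297-34819894 on the plus strand, Dusp1 at chr17:26505590-26562128 on the minus strand and Dusp5 at chr19:53529109-53542431 on the plus strand. Dusp5 shares 547 exon bases with the antisense gene AC137853.2. The strand used in counting is not stated, so reads of this pair cannot be fully told apart. AC137853.2 itself was assigned 20.2 estimated reads in CTR replicate 1 and at most 8.05 in any other library, against 659 to 1486 for Dusp5. Dusp1 shares 11 exon bases with Ergic1 on the opposite strand.

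Upstream sequences of 4 members are shown because they carry the letters of the cAMP response element (CRE; Dusp1 and Dusp8) or of its short form alone (Dusp16 and Dusp5). The CRE is the sequence to which CREB and ATF factors bind and which is known from the Dusp1 promoter. Each stretch runs from -250 to -41 relative to the RefSeq start site in GRCm38.p6, 5′ to 3′ on the strand of the gene. Capitals mark the CRE (TGACGTCA), its short form (TGACG, or CGTCA when read on the other strand) and the E-box (CACGTG).
Dusp1, chr17:26508513-26508722, minus strand: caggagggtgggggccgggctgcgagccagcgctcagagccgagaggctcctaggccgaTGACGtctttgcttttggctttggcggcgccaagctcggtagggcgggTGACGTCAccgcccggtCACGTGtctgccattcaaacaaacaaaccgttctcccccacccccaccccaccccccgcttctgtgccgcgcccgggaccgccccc
Dusp16, chr6:134792669-134792878, minus strand: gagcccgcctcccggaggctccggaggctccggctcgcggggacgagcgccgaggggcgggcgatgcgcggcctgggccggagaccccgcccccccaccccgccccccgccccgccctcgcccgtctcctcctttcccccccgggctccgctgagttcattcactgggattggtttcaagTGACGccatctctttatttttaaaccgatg
Dusp5, chr19:53528895-53529104, plus strand: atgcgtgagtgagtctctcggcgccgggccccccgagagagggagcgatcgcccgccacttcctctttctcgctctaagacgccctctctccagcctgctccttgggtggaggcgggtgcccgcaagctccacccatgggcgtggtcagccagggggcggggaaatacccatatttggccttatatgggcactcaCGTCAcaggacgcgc
Dusp8, chr7:142095325-142095534, minus strand: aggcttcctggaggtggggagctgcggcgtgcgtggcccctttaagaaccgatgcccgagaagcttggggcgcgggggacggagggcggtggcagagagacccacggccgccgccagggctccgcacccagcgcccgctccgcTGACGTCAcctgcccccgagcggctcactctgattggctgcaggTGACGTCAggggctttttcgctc
The stretch of Dusp1 overlaps the annotated Dusp1 exons by 7 bases and the stretch of Dusp5 lies in an exon of AC137853.2, whereas those of Dusp16 and Dusp8 overlap no annotated exon.

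The RefSeq promoter table, which gives 250 bases before and 50 bases after each start, held 9 of the 10 members; Dusp4 was missing. On both strands, the CRE was found in 1.79% of all 32851 promoters and in 2 of these 9 members, at -143 in Dusp1 and at -107 and -63 in Dusp8. The short form, which every CRE contains, was found in 20.8% of all promoters and in 5 members (Dusp1, Dusp2, Dusp5, Dusp8 and Dusp16). Outside a CRE it stood at -191 in Dusp1, at -70 in Dusp16, at -55 in Dusp5 and at 6 in Dusp2. The E-box was found in 7.15% of all promoters and in 2 members, at -126 in Dusp1 and at -109 in Dusp2. The NF-kB letters GGGNNTTTC were found in 4.36% of all promoters and in 1 member, Dusp5, at -89. The ETS letters CCGGAA were found in 14.9% of all promoters and in 1 member, Dusp14, at -65. The nuclear receptor motif AGGTCA, which was searched because the study dealt with the nuclear receptor PPARα, was found in 16.3% of all promoters and in 2 members, at -42 in Dusp16 and at -36 in Dusp8. AP-1 letters (TGANTCA) were found in 7.81% of all promoters and a TATA box (TATAAA) in 13.6%, and neither was found in a member. The GC box (GGGCGG) was found in 35.7% of all promoters and in 8 members, all but Dusp6. The 9 member promoters were richer in G and C, at 57.3% (Dusp6) to 78.7% (Dusp7), than the median promoter at 52.7%. The shares of all promoters were not matched for this. These matches are a description of letters, and no binding was measured.

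Each library held between 17469782 and 21092943 estimated reads, at which 3 reads correspond to 0.142 to 0.172 CPM (estimated reads scaled to the library total). The CPM values of genes below also take in TMM normalisation factors. CTR replicate 1 was unlike the rest: over 15028 genes it correlated with the other controls at a mean r of 0.870, whereas the lowest r among the other 8 libraries was 0.941. Its median log2 difference from the other controls was 0.88 in the 5010 shortest genes and -0.69 in the 5009 longest. Among the 10 members, CTR replicate 1 was the lowest control for 5 (Dusp1, Dusp4, Dusp6, Dusp7 and Dusp16) and the highest for 5 (Dusp2, Dusp5, Dusp8, Dusp10 and Dusp14). Its level was 0.145 times the mean of the other controls for Dusp4, 0.342 times for Dusp7, 1.52 times for Dusp5 and 2.11 times for Dusp2. Comparisons with CTR are therefore also given without it.

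The make-up of the family differed in BMDCs that received exosomes of tumor cells. With an adjusted p under 0.05, Dusp16, Dusp14, Dusp4 and Dusp1 rose and Dusp5 fell in TDE against CTR BMDCs, and Dusp2, Dusp6, Dusp7 and Dusp10 were not called. Dusp8 had too few reads to be tested. The comparison was made with edgeR's quasi-likelihood test and Benjamini-Hochberg adjustment over 15028 genes, of which 16.9% were called, 7.57% as higher and 9.34% as lower. Against NE BMDCs, which controls for exosomes as such and is at the same time the test of whether the differences of TDE and NE from CTR differ, Dusp16, Dusp14 and Dusp1 rose and none of the 9 tested members fell. In this comparison 13.9% of all genes were called, 6.73% as higher and 7.21% as lower. The comparisons share the TDE libraries. The median log2 fold change of the tested members was 0.42 against CTR and 1.08 against NE, beside -0.05 and -0.02 over all genes tested. All CTR and TDE libraries lay apart for 5 of 9 tested members, where 44.0% of all genes did so, and all NE and TDE libraries for 7 of 9, where 54.5% of all genes did so. Dusp14 is in all of these counts and in the medians. It passed the filter on low counts through the TDE libraries and so had to differ between groups.

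**Figure D1:**
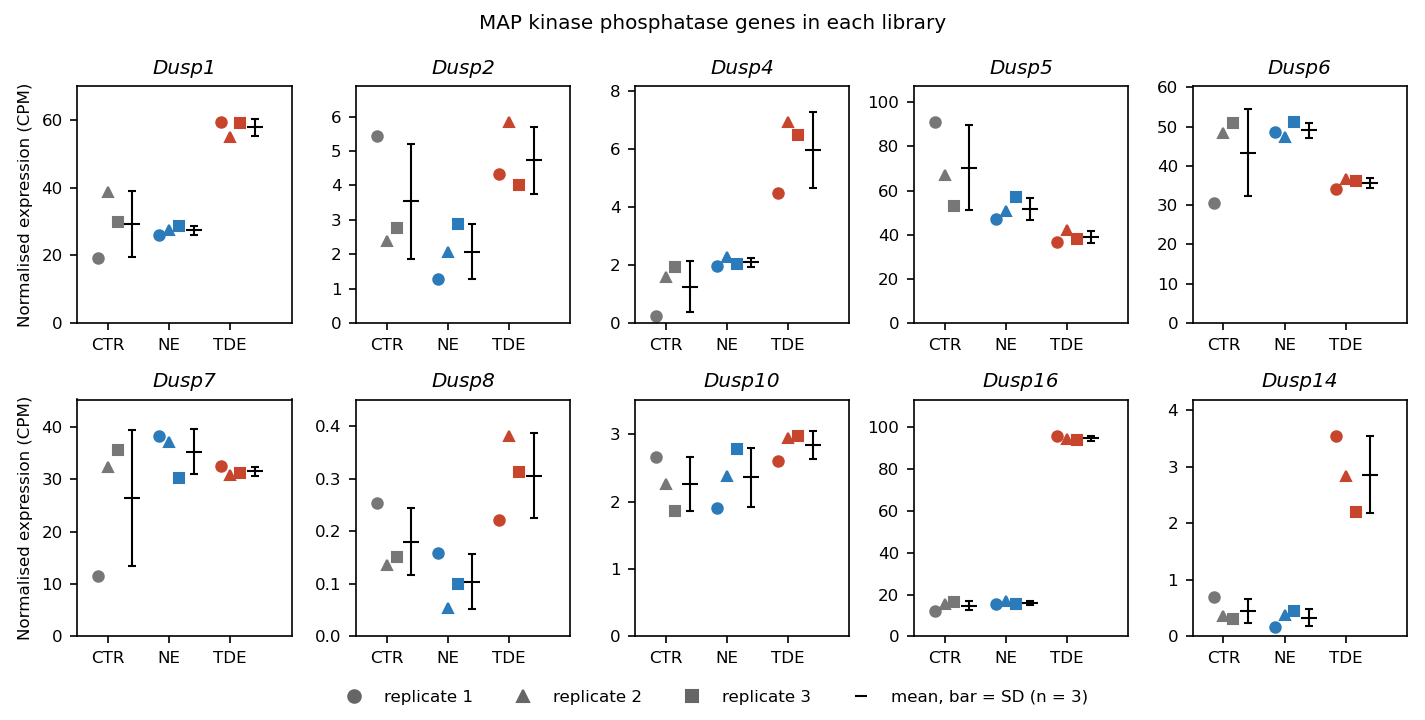
Normalised expression (CPM, vertical axes from 0, a scale of its own for each gene) of the 10 members in the CTR, NE and TDE libraries, with 1 symbol per library and the mean with its SD (n = 3) beside each group. Dusp16 reached 93.9 to 95.9 CPM in TDE libraries and stayed between 12.2 and 16.9 CPM in the others, and CTR replicate 1 (circles) lay farthest from the mean of the other controls, as a ratio, for Dusp4 (0.145 times), Dusp7 (0.342 times) and Dusp2 (2.11 times).

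Among the enzymes that prefer JNK and p38, Dusp16 had the clearest difference of the family. Its level was 12.2, 15.6 and 16.4 CPM in the CTR libraries, 15.5, 16.9 and 15.4 CPM in the NE libraries and 95.9, 94.1 and 93.9 CPM in the TDE libraries. Thus the TDE libraries were far above the other 6, which overlapped each other. Dusp16 rose 6.41-fold against CTR (log2 fold change 2.68 ± 0.15 (SE), adjusted p = 6.13e-05) and 5.94-fold against NE (2.57 ± 0.14, adjusted p = 4.74e-05). It ranked 120 of 15028 genes by log2 fold change against CTR. The log2 fold change was 2.55 when CTR replicate 1 was left out (adjusted p = 3.3e-07), and Dusp16 was past the threshold in all 18 other settings tried.

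Dusp10, which encodes a phosphatase of p38 and JNK, was at 2.66, 2.26 and 1.87 CPM in CTR libraries, at 1.91, 2.39 and 2.78 CPM in NE libraries and at 2.60, 2.95 and 2.98 CPM in TDE libraries. The groups overlapped. The log2 difference was 0.33 against CTR (95% confidence interval -0.21 to 0.87, adjusted p = 0.336) and 0.27 against NE (-0.27 to 0.81, adjusted p = 0.566).

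Dusp8 was near the limit of detection, with 4, 3 and 3 estimated reads in CTR, 3, 1 and 2 in NE and 4, 7 and 6.01 in TDE libraries. The ratio of its summed reads, scaled to library size, was 1.77 for TDE over CTR (95% interval 0.765 to 4.33) and 2.93 for TDE over NE (1.10 to 9.08), where the intervals cover counting error only. Its promoter, shown above, holds the CRE at both -107 and -63.

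Among the nuclear enzymes, Dusp1 was at 19.3, 38.8 and 29.8 CPM in CTR libraries, at 25.9, 27.5 and 28.6 CPM in NE libraries and at 59.4, 55.0 and 59.1 CPM in TDE libraries. All TDE libraries were above all others. Dusp1 rose 1.97-fold against CTR (log2 fold change 0.98 ± 0.23, adjusted p = 0.0222) and 2.12-fold against NE (1.08 ± 0.23, adjusted p = 0.0158). Leaving out CTR replicate 1 gave 0.74 against CTR (adjusted p = 0.0012). The call against CTR was lost when any TDE library was left out (adjusted p 0.0845, 0.0687 and 0.0835 without replicates 1, 2 and 3), and the call against NE when any NE or TDE library was left out (adjusted p between 0.0527 and 0.0752), while the log2 fold change stayed between 0.97 and 1.02 against CTR and between 1.04 and 1.12 against NE in these fits.

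Dusp4, a nuclear phosphatase of ERK and JNK, was low, at 4, 35 and 38 estimated reads in CTR libraries, 37, 42 and 41 in NE libraries and 81, 127 and 124 in TDE libraries. This corresponds to 0.254, 1.58 and 1.92 CPM in CTR, 1.96, 2.28 and 2.04 CPM in NE and 4.49, 6.93 and 6.48 CPM in TDE libraries, so that the TDE libraries were above all others. Dusp4 rose against CTR by a log2 fold change of 2.23 ± 0.55 (adjusted p = 0.0281), a value which the 4 reads of CTR replicate 1 raised: without that library it was 1.76 (adjusted p = 0.000596). The difference of 1.51 ± 0.53 from NE did not pass the threshold (adjusted p = 0.105). The call against CTR was lost without CTR replicate 2 and without any NE or TDE library (adjusted p between 0.0505 and 0.0969).

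Dusp5, a nuclear phosphatase specific for ERK, was the member that fell. Its level was 91.0, 67.1 and 52.8 CPM in CTR libraries, 47.1, 50.6 and 57.2 CPM in NE libraries and 36.52, 42.04 and 38.03 CPM in TDE libraries. TDE libraries were below all others, and NE libraries overlapped with CTR. The log2 fold change against CTR was -0.85 ± 0.20 (adjusted p = 0.0238), and the difference from NE of -0.41 ± 0.20 did not pass the threshold (adjusted p = 0.242). Without CTR replicate 1, its highest library, the log2 fold change against CTR was -0.63 (adjusted p = 0.00437). The call was lost without CTR replicate 2 (adjusted p = 0.0502) and without TDE replicates 1, 2 and 3 (0.104, 0.0708 and 0.097).

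Dusp2, a nuclear phosphatase of activated leukocytes, was at 5.45, 2.39 and 2.77 CPM in CTR libraries, at 1.27, 2.06 and 2.88 CPM in NE libraries and at 4.32, 5.84 and 4.02 CPM in TDE libraries. CTR replicate 1 lay among the TDE libraries, and the NE libraries lay below all TDE libraries. Neither the log2 difference from CTR (0.42 ± 0.39, adjusted p = 0.459) nor that from NE (1.19 ± 0.40, adjusted p = 0.094) passed the threshold. The values were 0.86 (adjusted p = 0.0614) against CTR and 1.17 (adjusted p = 0.00974) against NE when CTR replicate 1 was left out.

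The cytoplasmic ERK phosphatases were not called in either comparison. Dusp6, whose mRNA is a common readout of ERK activity, was at 30.7, 48.4 and 51.0 CPM in CTR libraries, at 48.7, 47.5 and 51.2 CPM in NE libraries and at 34.1, 36.6 and 36.1 CPM in TDE libraries. TDE libraries were below all NE libraries and below CTR replicates 2 and 3, but above CTR replicate 1. The log2 difference was -0.28 ± 0.19 from CTR (adjusted p = 0.303) and -0.46 ± 0.19 from NE (adjusted p = 0.158). These were -0.49 without CTR replicate 1 (adjusted p = 0.00133) and -0.47 (adjusted p = 0.000741), both past the threshold. Dusp7 was at 11.6, 32.2 and 35.5 CPM in CTR libraries, at 38.3, 37.2 and 30.3 CPM in NE libraries and at 32.5, 30.8 and 31.2 CPM in TDE libraries. Its log2 difference from CTR was 0.25 (95% confidence interval -0.56 to 1.06, adjusted p = 0.624) and took the other sign, -0.11 (adjusted p = 0.464), without CTR replicate 1.

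Dusp14, the small enzyme, was the member with the fewest reads among those tested, with 11, 8 and 6 estimated reads in CTR libraries, 3, 7 and 9 in NE libraries and 64, 52 and 42 in TDE libraries. In CPM these were 0.697, 0.361 and 0.303 in CTR, 0.159, 0.380 and 0.448 in NE and 3.55, 2.84 and 2.19 in TDE libraries. The TDE libraries were above all others, and CTR and NE libraries overlapped. It passed the filter on low counts through the TDE libraries, and a gene that passes in this way has to differ between groups. Its log2 fold change was 2.66 ± 0.45 against CTR (adjusted p = 0.00645) and 3.09 ± 0.47 against NE (adjusted p = 0.00375), and 3.07 against CTR without CTR replicate 1 (adjusted p = 0.000652).

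**Figure D2:**
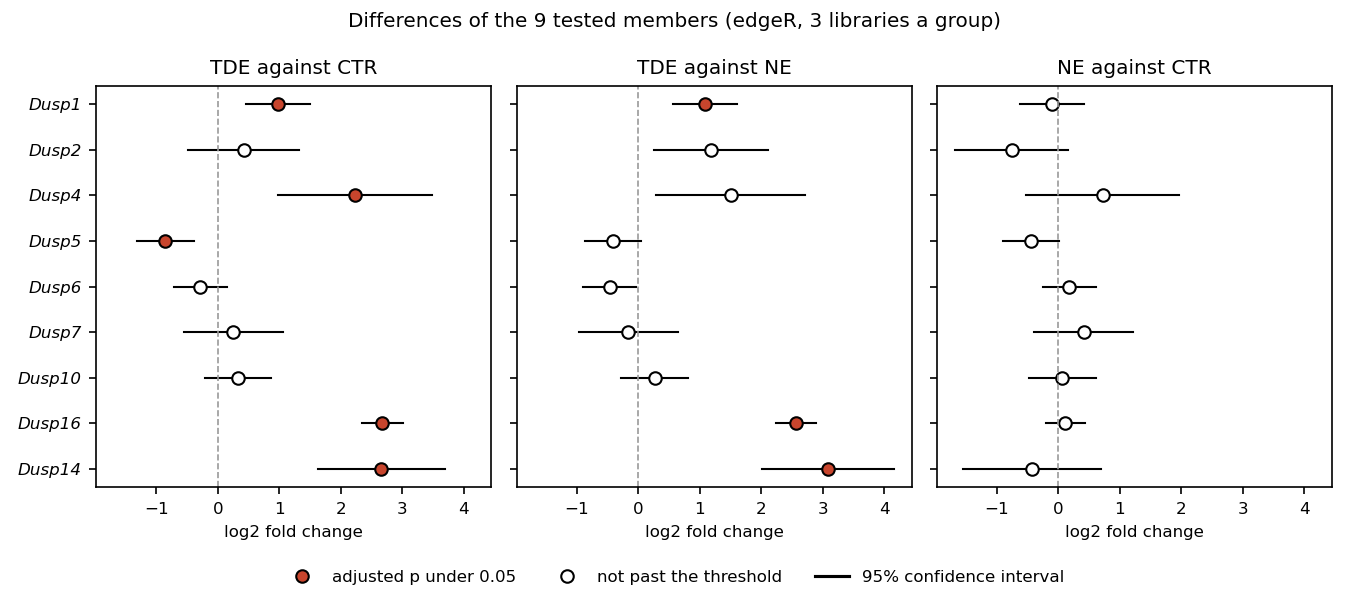
Log2 fold changes (horizontal axes) of the 9 tested members in TDE against CTR, TDE against NE and NE against CTR BMDCs, as points with 95% confidence intervals from edgeR (3 libraries a group). Filled points have an adjusted p under 0.05: Dusp1, Dusp4, Dusp5, Dusp14 and Dusp16 against CTR, Dusp1, Dusp14 and Dusp16 against NE, and none between NE and CTR.

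No member passed the threshold in BMDCs that received exosomes of NIH-3T3 cells. In NE against CTR BMDCs the log2 differences ran from -0.76 for Dusp2 to 0.72 for Dusp4, with adjusted p of 0.659 or more by edgeR, and 0 of 9 had an unadjusted p under 0.05. Of all 15028 genes, 0% were called, 487 had an unadjusted p under 0.05, DESeq2 called 3 and limma voom called 18. Dusp4 was the one member whose NE libraries (1.96 to 2.28 CPM) all lay above the CTR libraries (0.254 to 1.92 CPM), and 7.71% of all genes had groups that did not overlap. The 95% confidence interval of the Dusp16 difference, -0.21 to 0.42, was the narrowest in this comparison, and that of Dusp14, -1.55 to 0.69, was the widest after Dusp4 (-0.53 to 1.96).

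To compare members with each other, levels were divided by gene length (CPM per kb). The methods of the study describe amplification at the 3′ end, so reads need not scale with length. The order and the shares of the sum depend on this division. By CPM alone, Dusp16 at 94.6 was above Dusp1 at 57.8 in TDE BMDCs. Per length, Dusp5 was the highest member in CTR BMDCs at 28.4 ± 7.81 (SD, n = 3), followed by Dusp6 at 15.5 ± 3.96, Dusp1 at 14.7 ± 4.89 and Dusp7 at 8.23 ± 4.04, and Dusp6, Dusp1 and Dusp7 overlapped from one to the next. Dusp16 followed at 2.89 ± 0.436 and overlapped with Dusp2 at 2.19 ± 1.03. In NE BMDCs the first 4 had the same order, at 20.9 ± 2.07, 17.6 ± 0.670, 13.7 ± 0.680 and 11.0 ± 1.35, without overlap. In TDE BMDCs the order was different: Dusp1 was the highest at 29.1 ± 1.24, followed by Dusp16 at 18.5 ± 0.213, Dusp5 at 15.7 ± 1.15, Dusp6 at 12.7 ± 0.462 and Dusp7 at 9.80 ± 0.272, none of which overlapped with the next. Dusp2, Dusp14 and Dusp4 came after them at 2.92 ± 0.603, 2.64 ± 0.625 and 2.18 ± 0.474 and overlapped with their neighbours in that order. Dusp8 was the lowest member in each group, at most 0.0636 ± 0.0168.

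The summed per-length level of the 10 members was 73.7 ± 5.96 CPM per kb in CTR, 69.5 ± 2.70 in NE and 94.7 ± 0.817 in TDE BMDCs, and all TDE libraries were above the other 6. Dusp16 made up 3.92% ± 0.494 of this sum in CTR, 4.50% ± 0.290 in NE and 19.6% ± 0.328 in TDE BMDCs. The share of Dusp1 was 19.7% ± 5.14 in CTR, 19.8% ± 0.236 in NE and 30.7% ± 1.57 in TDE BMDCs. That of Dusp5 was 39.0% ± 12.9, 30.0% ± 1.83 and 16.6% ± 1.08. CTR replicate 1 raised the CTR share of Dusp5, at 53.6% against 33.8% and 29.5% in CTR replicates 2 and 3. For Dusp1 these controls were at 14.2%, 24.3% and 20.7%. The cytoplasmic ERK enzymes Dusp6 and Dusp7 held 20.9% ± 4.66 and 11.0% ± 5.18 in CTR and 13.4% ± 0.430 and 10.4% ± 0.351 in TDE BMDCs. Shares of one sum are not independent of each other, and no test was made on them.

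**Figure D3:**
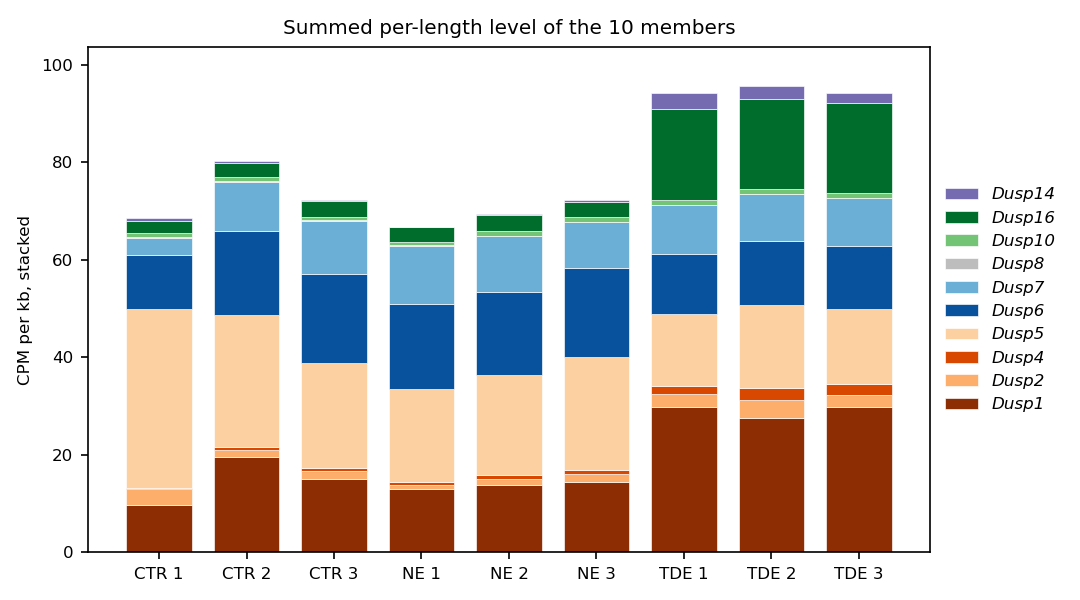
Stacked bars of the per-length level (CPM per kb, axis from 0) of the 10 members in each of the 9 libraries. The sum was 94.7 ± 0.817 CPM per kb in TDE and 73.7 ± 5.96 in CTR BMDCs (SD, n = 3), and the dark green segment of Dusp16 was 19.6% of the bar in TDE against 3.92% in CTR libraries.

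The genes with the profile most like that of Dusp16 were sought among 10448 tested genes by the root mean square difference of their centred log2 CPM over the 9 libraries. They were Synpo (0.119), which encodes an actin-associated protein, Ddit4 (0.136), an inhibitor of mTORC1 that stress induces, and Nfkbiz (0.167), which encodes an inducible nuclear IkB protein, beside a median of 1.28 over all candidates. Nfkbiz rose by a log2 fold change of 2.94 ± 0.21 in TDE against CTR BMDCs (adjusted p = 0.000132). For Dusp5 they were H2-Q6 (0.0816), an MHC class I gene with close paralogs that could share its reads, Fscn1 (0.0834), an actin-bundling protein of mature dendritic cells, and Apol7c (0.0849), beside a median of 0.522. The log2 fold change of Fscn1 was -0.70 ± 0.17 (adjusted p = 0.0263). Likeness over 9 libraries in 3 groups says nothing of shared control. These genes were chosen for likeness over the same libraries, so they had to differ between groups as Dusp16 and Dusp5 did. Their adjusted p-values are therefore a description and not further evidence.

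Of 16 other genes of the DUSP family in the table, most of which are not classical MAP kinase phosphatases, 11 were tested against CTR, 0 rose and 1 fell. This was Dusp12, with 10.2 ± 1.63 CPM in CTR and 6.84 ± 0.397 in TDE BMDCs (log2 fold change -0.57 ± 0.16, adjusted p = 0.0489). The median of the 11 was -0.57, where that of all genes was -0.05, and against NE 0 of 11 were called by edgeR. Dusp9, a classical MAP kinase phosphatase that prefers ERK, was at 0.727 ± 0.240 CPM in CTR, 0.730 ± 0.369 CPM in NE and 0.270 ± 0.0535 CPM in TDE BMDCs, with a log2 difference of -1.41 from each that did not pass the threshold (adjusted p = 0.0883 and 0.105); it was named after its values were seen. When CTR replicate 1 was left out, 4 of 11 fell against CTR and 3 against NE, and 0 rose, in a fit that called 34.4% and 40.7% of all genes. Among 6 tested phosphatases of other families that act on MAP kinases, 1 fell, Ppm1d, a p53 target that acts on p38 (-0.51 ± 0.14, adjusted p = 0.0371), and 0 rose, where 16.9% of all genes were called; 2 fell without CTR replicate 1.

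Of the MAP kinases and the 2 tiers of kinases above them, 7 of 36 tested genes (19.4%) were called against CTR, where 16.9% of all genes were. Of 10 MAP kinases tested, 0 rose and 2 fell against CTR. Mapk13, the p38 delta kinase, was at 105, 29.2 and 22.9 CPM in CTR libraries and 12.6 ± 0.613 in TDE BMDCs (log2 fold change -2.06 ± 0.54, adjusted p = 0.0344). It was -1.06 without CTR replicate 1 (adjusted p = 0.00127). The other was Mapk4, an atypical member, at 2.17 ± 1.17 and 0.453 ± 0.149 CPM, named after its values were seen. Of 7 MAP2 kinases, Map2k6, an activator of p38, rose (5.11 ± 0.749 to 10.5 ± 1.12 CPM, log2 fold change 1.03 ± 0.17, adjusted p = 0.00634) and Map2k3, another activator of p38, fell (-0.55 ± 0.15, adjusted p = 0.0375). Of 19 MAP3 kinases, Map3k12 rose (0.72 ± 0.19, adjusted p = 0.0346), and Map3k14, the kinase NIK of the non-canonical NF-kB pathway, fell (-0.49 ± 0.13, adjusted p = 0.0399), as did Map3k6, named after its values were seen. None of 10 kinases that MAP kinases activate and none of 6 proteins that bind AU-rich mRNAs was called by edgeR against CTR. When CTR replicate 1 was left out, 2 MAP kinases, 2 MAP2 kinases and 3 MAP3 kinases rose and 3, 1 and 3 fell. In the same fit 2 of the 10 activated kinases fell, and 1 of the 6 AU-rich mRNA-binding proteins rose and 1 fell. That fit called 34.4% of all genes. Against NE, Map2k6 rose, Mapk4 and Map3k6 fell, and no other gene of these lists was called, where 13.9% of all genes were. When CTR replicate 1 was left out, 40.7% of all genes were called against NE. There 2 MAP kinases, 2 MAP2 kinases, 7 MAP3 kinases, 1 activated kinase and 2 AU-rich mRNA-binding proteins rose. Of the same lists, in that order, 3, 1, 3, 2 and 2 genes fell.

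Inhibitors of RAS and ERK signalling went both ways. The list held Sprouty and Spred proteins, Errfi1 and RAS GTPase-activating proteins. Of 14 tested, 3 rose and 2 fell against CTR, where 16.9% of all genes were called. Spred3, a Sprouty-related inhibitor, rose from 14.8 ± 1.80 to 36.0 ± 1.57 CPM (log2 fold change 1.28 ± 0.17, adjusted p = 0.00212). Errfi1, an inhibitor of EGF receptor kinases, rose from 11.5 ± 0.655 to 26.4 ± 3.36 CPM (1.19 ± 0.14, adjusted p = 0.00134). Rasal3, a RAS GTPase-activating protein of blood cells, fell from 30.0 ± 0.541 to 19.0 ± 0.790 CPM (-0.66 ± 0.12, adjusted p = 0.00917). Rasa4, which rose, and Rasal1, which fell, were named after their values were seen. Both are RAS GTPase-activating proteins, like Rasal3. Against NE, 3 rose and 1 fell, where 13.9% of all genes were called. Without CTR replicate 1, 3 rose and 6 fell in each comparison. That fit called 34.4% of all genes against CTR and 40.7% against NE.

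Early genes that ERK induces were split as well, with 6 of 19 tested rising and 6 falling, both against CTR and against NE. Of all genes, 16.9% were called against CTR and 13.9% against NE. Fosl1, named after its values were seen, is among the 6 that rose in each comparison. It passed the filter on low counts only through the TDE libraries (2.56 CPM, against 0.206 CPM in CTR and 0.102 CPM in NE BMDCs). It therefore had to differ between groups. Ier3 rose from 38.4 ± 3.53 to 147 ± 6.76 CPM (log2 fold change 1.94 ± 0.14, adjusted p = 0.000143). Epha4, an ephrin receptor, rose from 2.77 ± 1.75 to 10.6 ± 1.19 CPM (1.93 ± 0.45, adjusted p = 0.0237). By contrast, the zinc finger factor Egr1 fell from 15.3 ± 1.20 to 6.23 ± 0.724 CPM (-1.30 ± 0.15, adjusted p = 0.00107) and Egr2 fell from 33.1 ± 6.46 to 17.4 ± 2.57 CPM (-0.93 ± 0.18, adjusted p = 0.0114). The median of the list was 0.01 against CTR.

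Most inflammatory mRNAs of a list taken as limited by Dusp1 were higher in TDE BMDCs, in which Dusp1 itself was higher. Whether Dusp1 limits each of them in dendritic cells was not tested. Of 10 tested, 8 rose and 0 fell against CTR, and 9 rose and 0 fell against NE. The median log2 fold changes were 2.09 and 2.31. Of all genes, 7.57% were called as higher against CTR and 6.73% against NE. Il10, named after its values were seen, is counted as rising in both comparisons and is part of both medians. It passed the filter on low counts only through the TDE libraries (2.37 CPM, against 0.0505 CPM in CTR and 0.0859 CPM in NE BMDCs). Such a gene has to differ between groups. The list was chosen with earlier results of these data known, so its counts are no independent test. Ptgs2, the inducible cyclooxygenase, rose from 1.45 ± 0.335 to 87.5 ± 22.3 CPM (log2 fold change 5.89 ± 0.32, adjusted p = 6.13e-05). Il1b rose from 160 ± 45.9 to 883 ± 6.93 CPM (2.46 ± 0.22, adjusted p = 0.000378). The lists of this and the preceding paragraphs had 0 genes called in NE against CTR BMDCs by edgeR, with or without CTR replicate 1.

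**Figure D4:**
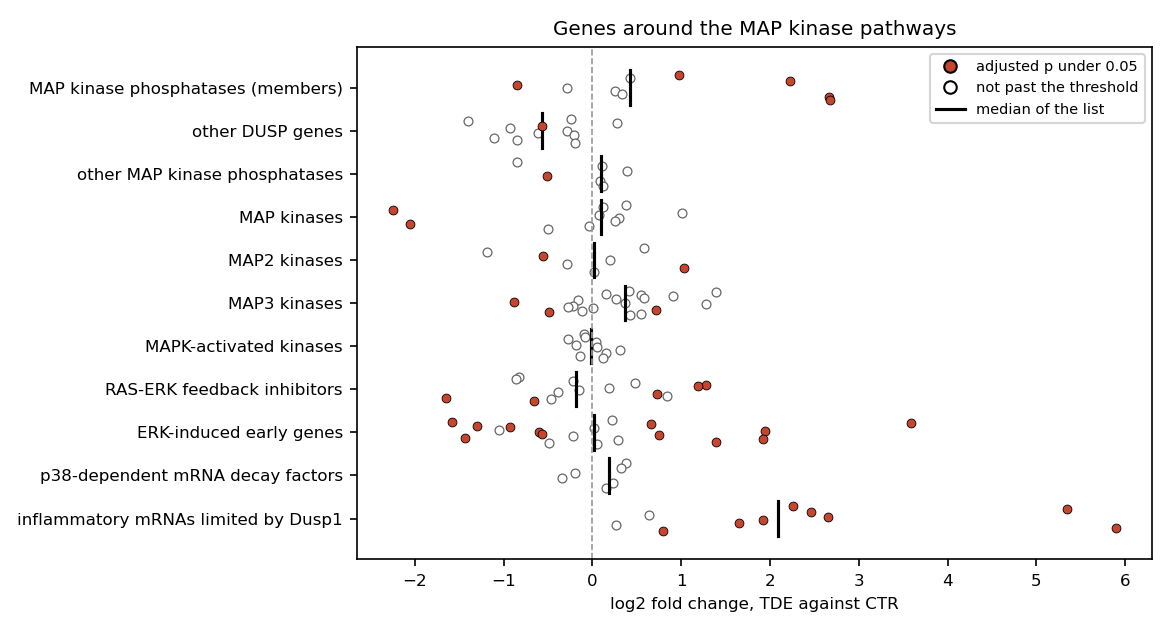
Log2 fold changes in TDE against CTR BMDCs (horizontal axis) of the tested genes of each list (rows), with filled points for an adjusted p under 0.05 by edgeR and a vertical bar at the median of each list. The members had a median of 0.42 with 4 filled points to the right and 1 to the left. Other DUSP genes had a median of -0.57, and the inflammatory mRNAs listed as limited by Dusp1 had a median of 2.09. The row labelled as mRNA decay factors holds the proteins that bind AU-rich mRNAs. The row labelled as feedback inhibitors also holds RAS GTPase-activating proteins.

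Markers of other cells moved with the TDE group. The BMDC label was checked on 9 dendritic cell markers, whose summed level was 1174 to 2533 CPM in CTR, 1120 to 1323 CPM in NE and 774 to 819 CPM in TDE libraries. This sum was mostly H2-Ab1 and Ccr7. In CTR libraries they were at 603 to 1583 and 339 to 761 CPM, and in TDE libraries at 406 to 437 and 178 to 200 CPM. Of 8 tested markers, 2 fell and 0 rose against CTR, where 9.34% of all genes were called as lower. Itgax was at 107 to 178 CPM in all libraries, and Cd209a was at 0 in TDE libraries and at most 0.163 CPM elsewhere. The summed level of 9 neutrophil markers was 7303 to 28299 CPM in CTR, 7700 to 10950 CPM in NE and 3403 to 3690 CPM in TDE libraries, with 7 of 9 falling against CTR, and CTR replicate 1 was the highest library. Eosinophil markers (5 of 5) and 4 of 6 mast cell and basophil markers fell as well, at 99.5 to 124 CPM and 13.7 to 15.2 CPM in TDE libraries against 426 to 1355 CPM and 69.2 to 232 CPM in CTR libraries. Of the mast cell and basophil markers, Mcpt4 was at 0 in every library. The summed level of 8 macrophage markers was 3834 to 4165 CPM in CTR, 3627 to 4114 CPM in NE and 5066 to 5444 CPM in TDE libraries, in which Adgre1 was at 2114 to 2312 CPM, against 206 to 480 CPM in CTR libraries. Of the macrophage markers, 1 rose (Adgre1) and 1 fell, and without Adgre1 the sum of the other 7 was 3387 to 3959 CPM in CTR, 3221 to 3644 CPM in NE and 2952 to 3133 CPM in TDE libraries, the lowest of the groups. Markers of T, B and NK cells were at 14.4 to 31.2 CPM in CTR and 7.70 to 8.52 CPM in TDE libraries, those of fibroblasts at 4.92 to 5.20 and 7.37 to 7.59 CPM, and those of epithelial cells at 8.22 to 8.90 and 4.37 to 7.05 CPM. In bulk RNA, fewer cells of a type and less RNA per cell cannot be told apart. The part of these markers in the differences of the phosphatases was not tested.

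**Figure D5:**
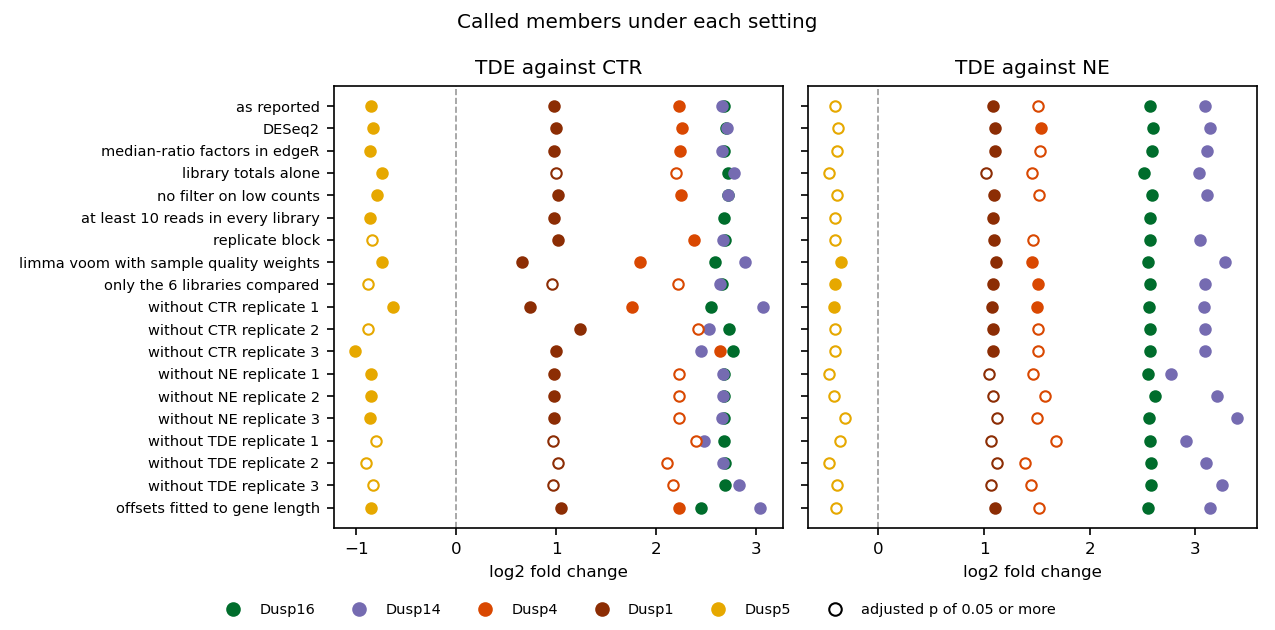
Log2 fold changes (horizontal axes) of the 5 members called against CTR, under the reported fit and each other setting (rows), in TDE against CTR and TDE against NE BMDCs. Dusp16 was filled (adjusted p under 0.05) in every row, whereas Dusp1, Dusp4 and Dusp5 each had rows with open points. Dusp14, which was tested only because its TDE libraries held enough reads, was not tested with at least 10 reads in every library.

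Without CTR replicate 1, 34.4% of all genes tested were called in TDE against CTR and 40.7% in TDE against NE BMDCs. In that fit 6 members were called against CTR (Dusp6 besides the 5 above) and 7 against NE (Dusp1, Dusp2, Dusp4, Dusp5, Dusp6, Dusp14 and Dusp16). The signs of the called members were the same with and without this library. The plot of settings shows that the log2 fold change of Dusp16 stayed between 2.45 and 2.77 against CTR, and that of Dusp1 between 0.66 and 1.24.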

How the data were processed

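RNA sequencing of 9 BMDC libraries (3 CTR, 3 NE, 3 TDE) was re-analysed. According to the methods of the study, reads were sequenced on a NovaSeq instrument after priming with oligo(dT) and random primers, described as amplifying at the 3′ end. They were aligned with TopHat2 2.1.1, and the authors' own comparison used DESeq2 1.24.0. The counting program and genome build are not given in the sources used here. The authors deposited estimated counts (expected counts) per gene without normalization, with gene lengths. The means per group were not used.

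Estimated counts were rounded. With edgeR 4.0.16 in R 4.3.3, filterByExpr kept 15028 genes, TMM factors were computed and a model of all 9 libraries with 1 mean per group was fitted. Groups were compared by the quasi-likelihood F test, two-sided, with Benjamini-Hochberg adjustment and a threshold of 0.05. The standard error is the log2 fold change divided by the square root of F. Log2 CPM for profile likeness used a prior count of 2. Intervals from reads (95%) cover counting error only. Depth and the floor of 3 reads stand with the results.

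The members and gene lists were chosen with earlier results of these data known. All 10 members are named. From each list up to 2 genes with the highest and 2 with the lowest log2 fold change in TDE against CTR were named, among genes past the threshold whose mean over all libraries reached 5 CPM and whose CTR and TDE libraries lay apart. Up to 3 genes with the most similar profile were named for the called members with the highest and lowest log2 fold change.

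Promoters came from a RefSeq table (GRCm38.p6) and positions from GENCODE vM21. The code was tested on simulated data. Alternatives were DESeq2 1.42.0, voom of limma 3.58.1, other scalings, filters and sets of libraries, a replicate block and, chosen after seeing the data, offsets fitted to gene length. Python 3.11.15, pandas 2.3.3 and matplotlib 3.10.9 were used for tables and plots.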

Additional observations from a re-analysis of the deposited data

How the results depend on the processing

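The reported fit called 5 members in TDE against CTR BMDCs, 4 as higher and 1 as lower. Of these, 3 were called with scaling by library totals alone (2 higher, 1 lower), 3 of 7 tested with at least 10 reads in every library, 2 from the 6 libraries compared alone and 3 when the log2 fold change also had to reach 1. Over all genes, library totals alone called 2020, the stricter filter 2198 and the 6 libraries alone 1152. Limma voom called 7 members (5 higher, 2 lower), with Dusp2 and Dusp6 besides the 5, in a fit that called 7886 of all genes. With single libraries left out the count of members ran from 2 to 6. Against NE, where 3 were called, DESeq2 called 5, limma voom 8 and the fit to the 6 libraries compared 7. Of all genes, these fits called 2746, 8311 and 6072. With single libraries left out the count of members against NE ran from 2 to 7. Both of these upper counts were without CTR replicate 1, where 5263 of all genes were called against CTR and 6223 against NE. Between NE and CTR, 0 members were called under all settings run. Over all genes, 2541 were called against CTR and 2095 against NE, and between 1103 and 7886 and between 970 and 8311 in the other settings. Scaling by library totals alone moved the median log2 difference of all genes in NE against CTR from 0.00478 to 0.12, and no member changed sign with it.

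Some differences that were not called changed sign. For Dusp7 against CTR the log2 difference was -0.0455 by voom and ran from -0.11 to 0.52 with single libraries left out. In NE against CTR it ran from -0.33 to 0.16 for Dusp1, from -0.019 to 0.32 for Dusp6, from -0.0873 to 0.20 for Dusp10 and from -0.00976 to 0.20 for Dusp16, was -0.0141 for Dusp6 and -0.00553 for Dusp10 by voom, and was -0.11 for Dusp16 with offsets fitted to gene length. The cause was not tested.

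The labels give the replicate numbers of the groups but no pairing. The deviations of same-numbered TDE and CTR libraries correlated at -0.03, -0.06 and 0.07, and those of TDE and NE libraries at 0.03, -0.04 and -0.07. Those of NE and CTR libraries correlated at -0.37, 0.18 and -0.59, where differently numbered NE and CTR libraries ran from -0.31 to 0.51. These values show no deviation shared by number, but they cannot show that the libraries were not paired. With a replicate block 4 members were called against CTR, where Dusp5 lost its call (adjusted p = 0.0779), and 3 against NE. Of all genes, that fit called 1285 against CTR and 1175 against NE, beside 2541 and 2095 in the reported fit. Of the pathway genes named above, Dusp12, Ppm1d, Mapk13, Map2k3, Map3k6, Map3k12, Map3k14 and Epha4 also were not called against CTR with the block (adjusted p between 0.0592 and 0.133). Depth limited Dusp8, which had at most 7 reads per library, and Dusp14, whose CTR and NE libraries held 3 to 11 reads.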
